A study of Mus musculus with 6 samples.

Results

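The class I odorant receptors of the mouse are a branch of the odorant receptor family whose closest relatives are the odorant receptors of fish. Their genes lie in a single cluster on chromosome 7, with genes of other kinds between them. They were taken here as the genes numbered from Olfr543 to Olfr695, a range that also holds the class II receptors Olfr693 to Olfr695. The RefSeq gene table (GRCm38.p6) holds 121 genes of this range, all on chromosome 7, and 117 of them had a probe set of their own on the array. Those 117 are the members described here, out of 22180 genes tested, and all are annotated as protein-coding. The members Olfr560, Olfr564, Olfr664 and Olfr666 had no probe set of their own.

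RNA from the vomeronasal organ was hybridised to 6 arrays, 3 of AP-2e null mice and 3 of wild-type mice at postnatal day 17, to find genes that differ between the genotypes. AP-2e is the transcription factor encoded by Tfap2e, and the labels name no further allele or agent in either group. The sources used here do not give how the null allele was built or how many animals went into a sample, and p-values measure only the spread between these samples. The vomeronasal organ holds sensory neurons for pheromones, with V1R receptors in its apical and V2R receptors in its basal layer.

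Odorant receptors are G protein-coupled receptors that neurons of the main olfactory epithelium use to detect smells. Each such neuron expresses mostly a single receptor gene out of the family. Class I receptors are known for responses to carboxylic acids and other polar, water-soluble odorants, and most of their neurons lie in the dorsal zone of the main epithelium. Some odorant receptors have also been found in neurons of the vomeronasal organ, and that is the tissue measured here. In bulk tissue, fewer cells of a type and less RNA per cell cannot be told apart.

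The label class I was checked against the receptors' older MOR names, in which families MOR1 to MOR42 are class I. Of the 117 members, 110 carried such a family name, spread over 41 families. Olfr693, Olfr694 and Olfr695 carried names of family MOR283, which is a class II family, and lie at the far end of the number range. Olfr596 and Olfr687 had no MOR name in the table, and the names of Olfr652 and Olfr681 were written without a family separator. Leaving out Olfr693 to Olfr695 moved no count of calls described here.

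The opening of the coding sequence is shown for the 3 members with the smallest p-values, and for Olfr577, the neighbour of Olfr578 in the same MOR7 family, since these receptors carry the differences described next. The sequences are 50 bases each from RefSeq (GRCm38.p6), 5′ to 3′ on the gene's strand, with the start codon in capitals.
Olfr681 (chr7:105121459-105121508, plus strand): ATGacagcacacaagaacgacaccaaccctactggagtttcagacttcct
Olfr549 (chr7:102554286-102554335, plus strand): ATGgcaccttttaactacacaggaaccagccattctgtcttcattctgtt
Olfr578 (chr7:102985113-102985162, minus strand): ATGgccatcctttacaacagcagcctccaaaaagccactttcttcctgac
Olfr577 (chr7:102973941-102973990, minus strand): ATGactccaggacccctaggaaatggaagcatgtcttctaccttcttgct
Compared base by base with no gaps, Olfr578 and Olfr577 shared 17 of these 50 bases (34.0%), and the other pairs shared between 17 and 23. Without gaps, stretches shifted against each other count as unlike, so likeness within a family cannot be read from these counts. The sources used here do not give where the array's probes lie in these genes. RefSeq windows were at hand for 101 of the 117 members, and in 76 of them the annotated gene began at the start codon, so no promoter is shown.

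Class I receptors as a group were at nearly the same signal in both genotypes. The mean log2 signal over the 117 members was 3.42, 3.34 and 3.42 on the AP-2e null arrays and 3.32, 3.43 and 3.41 on the wild-type arrays, so the groups overlapped. The group means were 3.39 ± 0.05 in AP-2e null and 3.38 ± 0.06 in wild-type organs (SD, n = 3 each). The mean difference was 0.010 on the log2 scale, and the median difference was -0.0062, against -0.00052 over all genes and 0.016 over the 971 other odorant receptor genes. Of the members, 55 had a higher and 62 a lower mean in AP-2e null organs. Single differences ran from -0.79 to 0.73, and the middle 50% of them lay between -0.14 and 0.13.

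No class I receptor passed the threshold in limma, which was a Benjamini-Hochberg adjusted p under 0.05 over all genes. The count was 0 higher members, where 0.00902% of all genes were higher, and 0 lower members, where 0.216% of all genes were lower (0.225% in either direction), and the smallest adjusted p of a member was 0.213. At an unadjusted p under 0.05 there were 4 higher and 7 lower members, or 9.40% of the 117. Of all genes, 1.9% were higher and 2.49% lower at this level, 4.4% in all, and the share was 6.90% for the other odorant receptor genes. These shares were not tested against each other, and nothing particular to class I receptors is read from them. The groups did not overlap for 11 members (9.40%), 5 of them higher and 6 lower in AP-2e null organs, where 3.42% of all genes were higher and 3.64% lower, 7.06% in all.

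The 95% interval of the difference shows how large a change in array signal these arrays leave possible. For 106 of the 117 members (90.6%, against 94.6% of all genes) it lay within 1 log2 unit of 0 on both sides. That is within 2-fold, and the median half-width over the members was 0.39. Among the other 11, the widest interval was that of Olfr653, from -0.93 to 1.71. These intervals are not adjusted for the number of genes. For 65 members both genotype means were under the lower quartile of all probe sets. Background hybridization also gives signal, so a narrow interval there does not bound a change in RNA.

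Signal was low for most of the family. Both genotype means lay under the lower quartile of all probe sets, 3.62, for 65 members (55.6%), against 15.4% of all genes and 75% of the other odorant receptor genes. Only 7 members had means above the arrays' median, 5.05, in both genotypes: Olfr549, Olfr556, Olfr584, Olfr612, Olfr655, Olfr681 and Olfr692, of which Olfr655 was picked after its values were seen. On an array, background hybridization also gives signal, and probes differ in brightness, so signals of different receptors were not ranked against each other. Exactly repeated values across arrays, at 4 decimals, occurred for 58 members (49.6%) and for 53.7% of all genes. Olfr639 and Olfr645, also picked after their values were seen, held only 2 different values each.

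**Figure D1:**
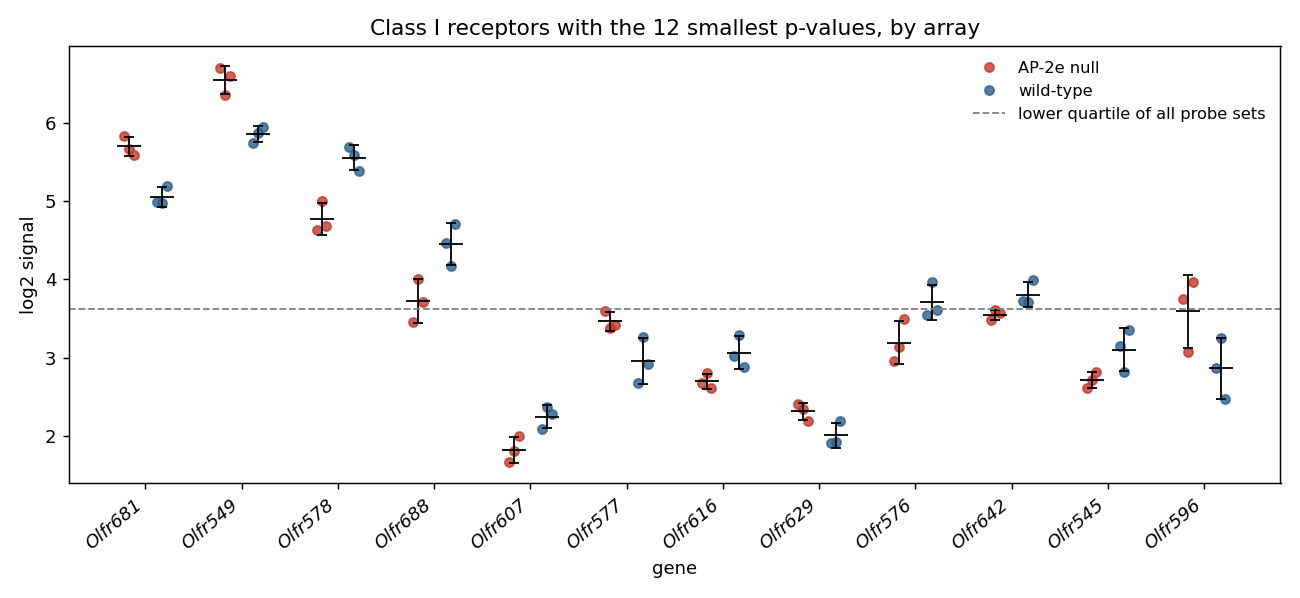
Log2 signal of the 12 class I receptors with the smallest p-values, with 3 AP-2e null arrays (red, left) and 3 wild-type arrays (blue, right) per gene, mean as a bar and SD as whiskers. The groups overlap only for Olfr629, Olfr545 and Olfr596, and Olfr607, Olfr577, Olfr616, Olfr629, Olfr545 and Olfr596 have both means under the dashed lower quartile of all probe sets (3.62).

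Olfr549, a receptor of family MOR31, was above the arrays' median in both genotypes and had a higher signal in AP-2e null organs. Its log2 signal was 6.70, 6.35 and 6.59 on the AP-2e null arrays and 5.74, 5.87 and 5.95 on the wild-type arrays. Every AP-2e null array was above every wild-type array. The group means were 6.55 ± 0.18 and 5.85 ± 0.10 in AP-2e null and wild-type organs (SD, n = 3 each), a difference of 0.70 with a standard error (SE) of 0.11, or 1.62-fold, and the limma adjusted p was 0.272. The other 9 measured members of family MOR31 had differences between -0.19 and 0.48, the last being Olfr651, and 7 of the family's 10 genes were lower in AP-2e null organs.

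Olfr681, whose MOR name in the table does not separate family from number, showed the same pattern. It stood at 5.83, 5.66 and 5.59 in AP-2e null organs and at 4.98, 4.98 and 5.19 in wild-type organs. The lowest AP-2e null array was above the highest wild-type array. The difference was 0.64 (SE 0.10), or 1.56-fold, with a limma adjusted p of 0.213 and an interval from 0.41 to 0.88.

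Olfr578 had the largest difference of any member, and it was a lower signal. Its log2 signal was 4.62, 5.0 and 4.68 on the AP-2e null arrays and 5.69, 5.58 and 5.38 on the wild-type arrays, with no overlap. The means were 4.77 ± 0.20 in AP-2e null and 5.55 ± 0.16 in wild-type organs (SD, n = 3 each), and the difference was -0.79 (SE 0.13, 1.72-fold) with a limma adjusted p of 0.331. Olfr549, Olfr681 and Olfr578 kept an unadjusted p under 0.05 in limma or the plain test in all 16 alternative settings, and none of them passed the adjusted threshold in any. They were picked for the smallest p on these same arrays, so this is no independent support. Olfr688 and Olfr607 likewise kept it in all 15 of their alternatives.

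The members directly beside Olfr578 in gene order, Olfr577 and Olfr582, did not share its direction, while Olfr576, beyond Olfr577, did. Olfr582, at place 28 and picked after its values were seen, differed by 0.35 (SE 0.19). Its groups overlapped, and both its means were under the lower quartile of all probe sets. Olfr577, the next gene of the cluster and like Olfr578 a member of family MOR7, stood at 3.60, 3.38 and 3.41 in AP-2e null organs and at 2.68, 3.26 and 2.92 in wild-type organs. All its AP-2e null arrays were above its wild-type arrays, with a difference of 0.51 (SE 0.16) and a limma adjusted p of 0.873. Olfr576, the gene after that and of family MOR8, had 2.95, 3.14 and 3.49 in AP-2e null organs and 3.55, 3.97 and 3.60 in wild-type organs. There every AP-2e null array was below every wild-type array, and the difference was -0.51 (SE 0.18), also with a limma adjusted p of 0.873. So 3 adjacent receptors, at places 25, 26 and 27 of the members in gene order, were lower, higher and lower.

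Olfr688, of family MOR40, was the other member with a difference over 0.7 among the 11 with an unadjusted p under 0.05. It had 3.45, 4.01 and 3.72 on the AP-2e null arrays and 4.46, 4.17 and 4.70 on the wild-type arrays, without overlap. Its difference was -0.72 (SE 0.19), with a limma adjusted p of 0.873. The remaining members among these 11 were Olfr607 at -0.42, Olfr616 at -0.37, Olfr629 at 0.31, Olfr642 at -0.26 and Olfr545 at -0.39, besides Olfr577 and Olfr576. For 5 of the 11, both genotype means were under the lower quartile of all probe sets. Olfr584, of family MOR30, did not overlap between the genotypes either, at 6.29, 6.29 and 6.40 in AP-2e null and 6.21, 6.22 and 6.18 in wild-type organs, but its difference was only 0.13 (limma adjusted p = 0.873).

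**Figure D2:**
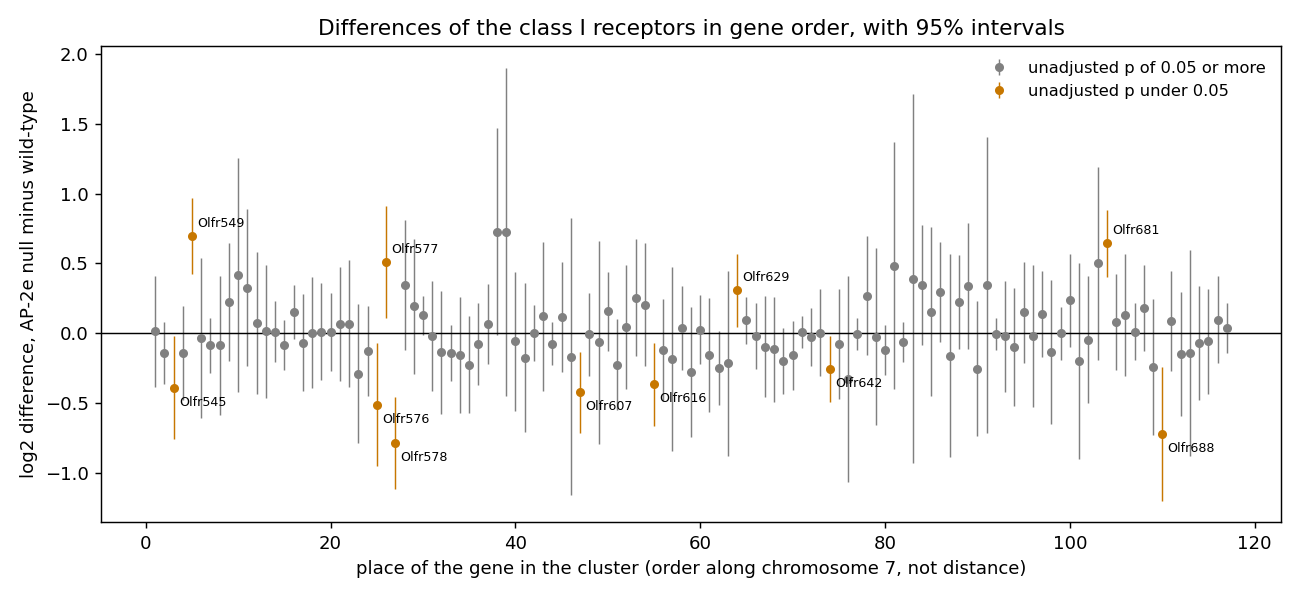
Log2 difference (AP-2e null minus wild-type) of each of the 117 class I receptors with its 95% interval, in gene order along chromosome 7. The 11 receptors with an unadjusted p under 0.05 (orange) lie on both sides of 0, and Olfr576, Olfr577 and Olfr578 sit next to each other with unlike signs.

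By receptor number, the median differences of 5 stretches of the cluster were close to 0, while the larger single differences were spread unevenly. The median difference was 0.01 for the 19 members from Olfr543 to Olfr569, -0.04 for the 22 from Olfr570 to Olfr599, -0.06 for the 23 from Olfr600 to Olfr629, -0.02 for the 25 from Olfr630 to Olfr659 and -0.0027 for the 28 from Olfr660 to Olfr695. Each stretch held between 1 and 3 of the members with an unadjusted p under 0.05. In the same order these were 10.5%, 13.6%, 13%, 4% and 7.14% of the stretch, against 4.4% of all genes. Of the 9 members with a difference beyond 0.5 in either direction, 5 lay from Olfr570 to Olfr599, or 22.7% of that stretch. These were Olfr576, Olfr577, Olfr578, Olfr596 and Olfr597. Another 1 lay from Olfr543 to Olfr569, 3 from Olfr660 to Olfr695 and 0 in the stretches between. Such differences occurred in 7.69% of the members, 5.25% of the other odorant receptor genes and 2.48% of all genes. Olfr577, Olfr596 and Olfr597 had both means under the lower quartile of all probe sets, and the groups overlapped for Olfr596 and Olfr597. The stretch from Olfr570 to Olfr599 also held 4 of the 11 members whose groups did not overlap, or 18.2% of its members, where 7.06% of all genes did not overlap, and the other stretches held 1 or 2 each. These counts were not tested. Of the 116 pairs of adjacent members, 62 had differences of the same sign. In 8 sequence families with at least 4 measured members the median differences lay between -0.13 (MOR8) and 0.08 (MOR40). The 2 largest families, MOR32 with 11 and MOR31 with 10 measured members, had median differences of -0.05 and -0.12.

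Receptors with earlier reports were looked at whatever their values. Olfr692, reported in a set of neurons of the mouse vomeronasal organ that respond to pup odours, stood at 5.39, 4.94 and 5.03 in AP-2e null organs and at 4.94, 5.31 and 5.33 in wild-type organs. The groups overlapped, and the difference was -0.07 (SE 0.16, 95% interval from -0.48 to 0.34). Olfr558, the counterpart of human OR51E1 and a receptor for short-chain fatty acids also known from blood vessels, had 4.01, 3.94 and 4.01 in AP-2e null and 4.01, 3.81 and 4.11 in wild-type organs. Its difference was 0.01 (SE 0.09).

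Olfr544, a receptor for the dicarboxylic acid azelaic acid, had 4.03, 4.25 and 4.30 in AP-2e null organs and 4.42, 4.30 and 4.30 in wild-type organs, a difference of -0.14 (SE 0.09). Its neighbour Olfr545, likewise of family MOR42, had 2.62, 2.71 and 2.81 in AP-2e null and 3.14, 2.81 and 3.36 in wild-type organs, with a difference of -0.39 (SE 0.15) at a signal under the lower quartile. Both ran lower on most AP-2e null arrays, and in each of them the genotypes met at a shared value. Olfr569, of family MOR30, differed by 0.01 (SE 0.14). Intervals of Olfr544, Olfr558, Olfr569 and Olfr692 all include 0, and each stays within 0.5 log2 units of it.

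**Figure D3:**
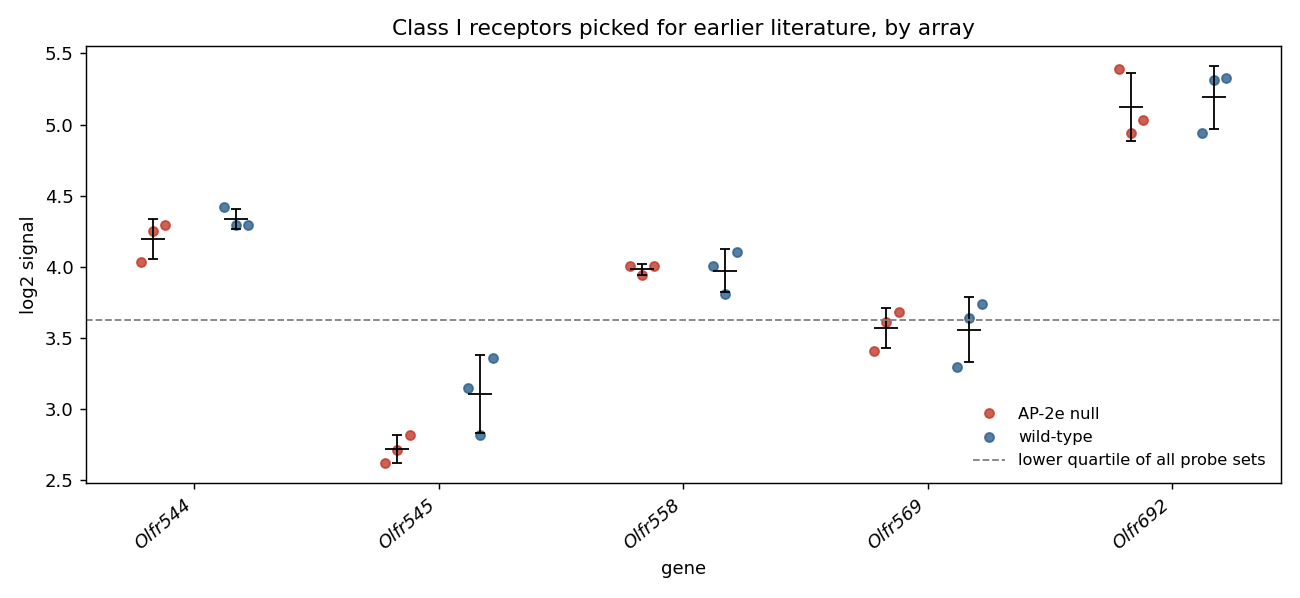
Log2 signal of 5 class I receptors picked for earlier reports, with 3 AP-2e null arrays (red, left) and 3 wild-type arrays (blue, right) per gene, mean as a bar and SD as whiskers. The genotypes overlap or meet for every gene, and Olfr545 lies under the dashed lower quartile of all probe sets (3.62).

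Some members varied widely within a genotype. Olfr653, of family MOR33, had 4.22, 4.29 and 5.07 in AP-2e null and 3.32, 5.23 and 3.86 in wild-type organs, the largest spread of the family. Olfr597, of family MOR23, had 3.44, 1.75 and 2.31 in AP-2e null and 1.88, 1.29 and 2.16 in wild-type organs, and Olfr663, of family MOR40, had 3.65, 2.17 and 2.35 in AP-2e null and 2.23, 2.14 and 2.76 in wild-type organs. In both, AP-2e null replicate 1 was well above all other arrays. Olfr606 was spread over 2.23 to 3.16 in AP-2e null and 2.33 to 3.57 in wild-type organs. Olfr596 had the largest positive difference of the members, 0.73 (SE 0.30), but its arrays overlapped, at 3.75, 3.07 and 3.96 in AP-2e null and 2.86, 3.25 and 2.48 in wild-type organs. Olfr679, at 0.50 (SE 0.28), overlapped as well. Within genotypes the median SD of a member was 0.22.

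**Figure D4:**
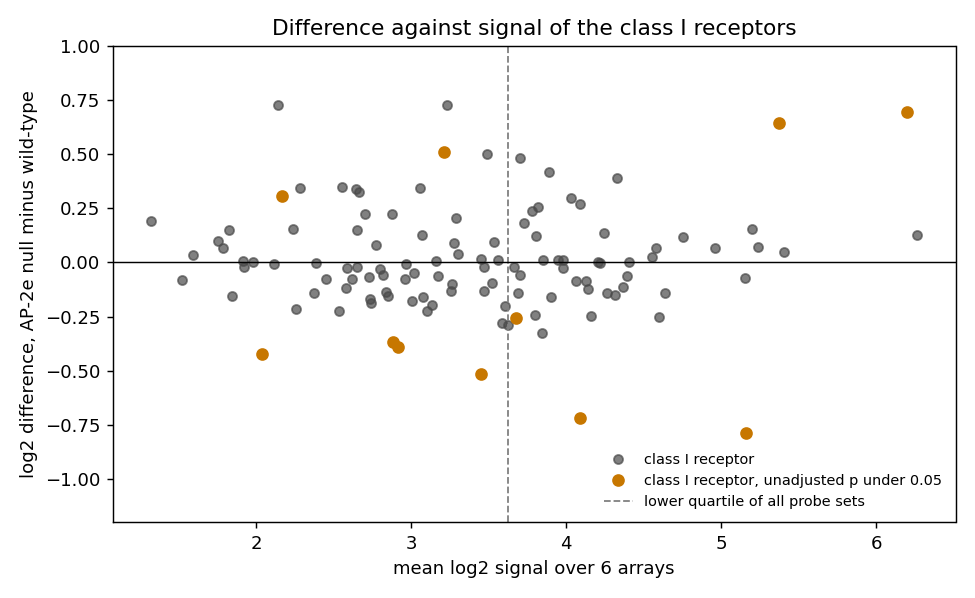
Log2 difference (AP-2e null minus wild-type) of each of the 117 class I receptors against its mean log2 signal over 6 arrays. Receptors with an unadjusted p under 0.05 (orange) occur on both sides of the dashed lower quartile of all probe sets (3.62), and all differences lie between -0.79 and 0.73.

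Further class I receptors of the same cluster carry numbers outside the range and were measured as 8 genes: Olfr33, Olfr64, Olfr65, Olfr66, Olfr67, Olfr68, Olfr69 and Olfr243. None passed in limma and 0 had an unadjusted p under 0.05, where 4.4% of all genes did. The groups overlapped for all 8, where 7.06% of all genes did not overlap. Both genotype means were under the lower quartile of all probe sets for 6 of the 8. Differences of the 8 genes lay between -0.15 and 0.69, and 7 had higher means in AP-2e null organs. The largest was that of Olfr65, at 5.26, 4.34 and 3.81 in AP-2e null and 3.86, 3.59 and 3.87 in wild-type organs, where AP-2e null replicate 1 stood apart.

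Genes that are no odorant receptors also lie between the first and the last member, among them embryonic globin genes and Trim genes. The Trim genes code for ubiquitin ligases of innate immunity. This span reaches to the class II receptors Olfr693 to Olfr695. Genes beyond Olfr692, the last member with a class I family name, were not separated from those within the class I cluster. Of the 40 measured, 0 passed in limma, where 0.225% of all genes did, and 1 (2.5%) had an unadjusted p under 0.05, where 4.4% of all genes did. That was Tpp1, a lysosomal peptidase, at 0.17 (SE 0.07). The next by p were Cavin3, a caveolar coat protein, at 0.11 and Hbb-y, an embryonic globin, at -0.23. The median difference of the 40 genes was -0.02.

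Genes for the proteins that odorant receptors work with were measured on the same arrays, and none passed in limma, where 0.225% of all genes did. Among the receptor partners, 1 of 5 had an unadjusted p under 0.05 (20%, against 4.4% of all genes). The groups did not overlap for the same gene, Rtp1 (20%, against 7.06% of all genes). Of 5 measured receptor partners, Rtp1, which helps odorant receptors to the cell surface, had the smallest p, with 10.97, 10.82 and 10.97 in AP-2e null and 10.59, 10.40 and 10.45 in wild-type organs. Its groups did not overlap, and the difference was 0.44 (SE 0.08, limma adjusted p = 0.370). The related Rtp2 differed by -0.08, Gfy, a Golgi protein of olfactory neurons, by -0.14 and Reep1 by 0.05. Of 10 regulators of receptor choice, 0 had an unadjusted p under 0.05, against 4.4% of all genes, and 6 had higher means. They included Lhx2 at 0.03 and Ebf1 at 0.02, transcription factors of olfactory neurons, and Bcl11b, a regulator of the choice between receptor classes, at 0.04. The 3 with the smallest p were Atf5 at -0.23, Emx2 at -0.15 and Ebf3 at -0.09.

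Some genes of olfactory signal transduction varied widely between arrays of the same genotype. Of 9 measured, 0 passed and 1 (11.1%, against 4.4% of all genes) had an unadjusted p under 0.05, the chloride channel Ano2 at -0.40 (SE 0.09, limma adjusted p = 0.705). Cngb1 differed by -0.15 and Omp, a marker of mature sensory neurons, by -0.41. Ano2 and Omp were the 2 of 9 genes whose groups did not overlap, both lower in AP-2e null organs, against 7.06% of all genes. Gnal, the G protein subunit that odorant receptors use, stood at 5.24, 7.14 and 7.12 in AP-2e null and 4.35, 7.55 and 5.88 in wild-type organs. Stoml3, a protein of olfactory cilia, stood at 8.43, 10.18 and 10.25 in AP-2e null and 8.73, 10.51 and 8.73 in wild-type organs. Both were thus high on AP-2e null replicates 2 and 3 and wild-type replicate 2, and lower on the other arrays. Cnga2 was too, at 4.48, 5.42 and 5.29 in AP-2e null and 3.36, 5.75 and 3.82 in wild-type organs. Over 7 measured markers of olfactory sensory neurons the mean signal ranged from 7.35 to 8.03 in AP-2e null and from 7.12 to 8.22 in wild-type organs, 4 of the 7 were higher in AP-2e null organs, and none was under the lower quartile. Their part in the values of the class I receptors was not tested. The dorsal zone genes Nqo1 and Acsm4 differed by 0.35 (SE 0.29) and 0.02 (SE 0.18), with overlap.

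Tissue and genotype were checked on the same arrays. The marker genes of vomeronasal neurons were all above the lower quartile, with the channel Trpc2 at 6.96 in AP-2e null and 7.0 in wild-type organs. Of the 7 genes 0 passed, 3 had an unadjusted p under 0.05 (Gnao1, Vmn2r1 and Meis2), and 4 did not overlap between the genotypes (the same 3 and Omp). Of all genes, 0.225% passed, 4.4% had an unadjusted p under 0.05 and 7.06% did not overlap. The basal markers Gnao1 and Vmn2r1 differed by -0.68 and -0.98 (limma adjusted p = 0.331 and 0.342), and the groups did not overlap for either. Meis2, of apical neurons, differed by 0.26 (limma adjusted p = 0.873) without overlap, the apical subunit Gnai2 by 0.11, Gng8 by 0.06, Trpc2 by -0.04 and Omp by -0.41. Tfap2e had 5.97, 6.09 and 6.04 in AP-2e null and 6.46, 6.76 and 6.92 in wild-type organs without overlap (difference -0.68, limma adjusted p = 0.431). Whether its probes lie in the altered stretch is not known from the labels or files used here. Cartilage markers averaged between 5.43 and 7.90 in AP-2e null and between 5.68 and 5.82 in wild-type organs, with AP-2e null replicate 2 the highest. The mean signals of the marker lists of supporting cells and glands (7.19 to 8.71 in AP-2e null, 7.51 to 8.42 in wild-type), of multiciliated cells (8.22 to 8.52 in AP-2e null, 8.31 to 8.96 in wild-type), of vascular smooth muscle (10.37 to 10.54 in AP-2e null, 10.16 to 10.49 in wild-type) and of skeletal muscle (4.86 to 5.31 in AP-2e null, 5.14 to 6.06 in wild-type) overlapped between the genotypes, and 0 genes of these lists passed. Single markers ran further apart. Cyp2g1, of supporting cells and glands, stood at 7.27, 9.70 and 10.01 in AP-2e null and 4.33, 10.13 and 7.41 in wild-type organs. Like Gnal and Stoml3, Cyp2g1 and Ermn of this list were highest on AP-2e null replicates 2 and 3 and wild-type replicate 2. Bpifb9a of the same list was instead highest on replicate 1 of both genotypes, and Obp1a was lowest on wild-type replicate 2. All 5 multiciliated and all 5 skeletal muscle markers had lower means in AP-2e null organs, while 5 of 6 vascular markers and all 5 cartilage markers had higher means. Among them the groups did not overlap for Pdgfrb, a receptor of pericytes, at 9.70, 9.72 and 9.78 in AP-2e null and 9.40, 9.49 and 9.52 in wild-type organs (limma adjusted p = 0.756). The part of these cell types in the values of the class I receptors was not tested. Of 6 erythroid markers only Slc4a1 was measured, at 0.33. Correlations between arrays across genes, which are not independent replicates, were between 0.978 and 0.992.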

How the data were processed

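Per the submitters' processing notes, the authors made the deposited log2 signals with RMA and the Transcriptome Analysis Console. The sources used here do not give versions, settings or genome build. Per the labels' protocols, biotin-labelled target came from 100 ng of total RNA per sample. Genotypes and replicate numbers come from the sample titles.

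Of 41345 probe sets, 23521 carried 1 gene symbol, 1814 several and 16010 none. The 1-gene probe set with the highest mean over 6 arrays stood for each gene, which gave 22180 genes. Members were matched by symbol, and all 117 matched RefSeq by Entrez identifier. limma 3.58.1 in R 4.3.3 (lmFit, eBayes, 2-sided, no covariate, no filter on dim genes) was fitted to the whole table. Each difference is AP-2e null minus wild-type, with the SE of the fit. The number of arrays limits the precision. Plots used matplotlib 3.10.9.

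Named genes were Tfap2e, the 12 members with the smallest p, the 6 largest differences each way, the 5 highest means, the 4 largest within-group SDs, 5 members from the literature, and up to 3 genes of each other list by p, with Rtp2, Gfy, Reep1, Lhx2, Ebf1, Bcl11b and others added after their values were seen. Members and lists were chosen with earlier results of these data known. A planned comparison of whole receptor proteins was not run, since no protein sequences were used here. MOR family names stood in its place. The scripts were tested on simulated data. Receptor genes can share probes with near-identical copies, so values of single receptors are uncertain.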

Additional observations from a re-analysis of the deposited data

How the results depend on the processing

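No class I receptor rose or fell past the threshold in any of 16 alternatives. Their count at an unadjusted p under 0.05 was 7 with the plain one-way test (5.98% of members and 2.86% of all genes) and 3 without the dimmest 30% of genes, which left only 13 members (23.1% of them and 4.71% of the genes kept). With a single array left out it was between 8 and 13, or 6.84% to 11.1% of members, against 3.52% to 6.61% of all genes. Receptors with groups that did not overlap numbered 4 of these 13 without the dimmest genes (30.8%, against 7.76% of the genes kept). With all arrays, their count was 16 with median centring (13.7%, against 9.38% of all genes). It was 15 with quantile normalization repeated (12.8%, against 10.9%) and 16 with cyclic loess (13.7%, against 11%). With an array left out, where 2 arrays stand against 3, they numbered between 17 and 26, or 14.5% to 22.2% of members, and 13.3% to 17.4% of all genes did not overlap. The median difference stayed between -0.04 and 0.07 over all settings. Genes that rose or fell over the whole table numbered 50, but 4 with the plain one-way test and 22 with the replicate block. Across all genes, same-numbered arrays deviated from their group means together with r of 0.04, 0.11 and 0.02. With 3 arrays per genotype and array noise in every gene, these values cannot decide whether the numbers in the titles mark pairs. With the block, 13 members (11.1%, against 4.82% of all genes) had an unadjusted p under 0.05 and 0 passed. Without AP-2e null replicates 1, 2 and 3, the genes that rose or fell numbered 27, 20 and 24. Without wild-type replicates 1, 2 and 3 they numbered 21, 17 and 32. The direction held in every alternative for 16 of 24 named members. With single arrays left out, the difference ran from -0.14 to 0.15 for Olfr612, -0.067 to 0.26 for Olfr556, -0.019 to 0.94 for Olfr653, -0.11 to 0.62 for Olfr663, -0.42 to 0.21 for Olfr606, -0.072 to 0.078 for Olfr558, -0.21 to 0.020 for Olfr692 and -0.12 to 0.10 for Olfr569, and Olfr606 was at 0.011 with array weights. The cause was not tested. Chosen after seeing the data, settings without Olfr693 to Olfr695 and with only the 59 members that had 6 different values gave 11 and 9 members at an unadjusted p under 0.05 (9.65% and 15.3%, against 4.4% of all genes in both) and 0 past the threshold.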

Other observations

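Probe sets that carry the names of several receptors entered no comparison. The probe set shared by Olfr78, a class I receptor for short-chain fatty acids, and Olfr560 stood at 5.22, 4.78 and 4.81 in AP-2e null and at 4.61, 3.67 and 4.81 in wild-type organs. The genotypes overlapped, with AP-2e null replicate 2 below the highest wild-type array. The probe set shared by Olfr564 and Olfr560 averaged 3.67 ± 0.39 in AP-2e null and 3.86 ± 0.19 in wild-type organs (SD, n = 3 each). The one shared by Olfr666 and Olfr668 averaged 3.78 ± 0.58 in AP-2e null and 3.76 ± 0.47 in wild-type organs. Olfr638 had a second, dimmer probe set of its own, at 1.97 ± 0.69 in AP-2e null and 2.37 ± 0.72 in wild-type organs.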
